A study of Mus musculus with 12 samples.

Results

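Metallothioneins and the transporters of zinc, manganese and copper were followed from mouse liver tissue through hepatocyte isolation to culture. The set holds 8 genes chosen by name, out of 32285 in the matrices: the metallothioneins Mt1 and Mt2, the exporters Slc30a1 and Slc30a10, the importers Slc39a8 and Slc39a14, and the copper proteins Cp and Atp7b. All 8 passed the filter on low counts in hepatocyte nuclei, where 26521 genes were tested. Nuclei from 8 male wild-type mice, 10 to 12 weeks old and fed chow, were sequenced one by one, with 3 samples from each liver. Liver was a lobe tied off and frozen after perfusion, Cell Suspension was the hepatocyte fraction collected after collagenase digestion and low-speed spins, and Primary Hepatocytes were those cells after 24 h on collagen. All mice received avertin and all livers were perfused with a calcium-chelating buffer before any sample was taken, so none of the samples is untouched liver. The strain is C57BL6J in the labels and C57BL/6NTac in the methods. Cell Suspension was dispersed and washed in plating medium with 10% serum. Primary Hepatocytes were plated in that medium and then kept in 0.5% serum, 1 uM dexamethasone and 1 nM insulin. They alone were detached with trypsin-EDTA before freezing. Attachment, time, the change of serum, hormones and detachment thus cannot be told apart in that group.

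Metallothioneins are small, cysteine-rich proteins that bind zinc, copper and cadmium. Their genes are switched on by the zinc-sensing factor MTF1 through metal response elements, and also by glucocorticoids and the acute-phase response, and the liver is one of their main sites. Cells set their free zinc and manganese by balancing SLC39 (ZIP) importers, which bring metal into the cytosol, against SLC30 (ZnT) exporters, which take it out. Hepatocytes also handle the body's copper: ATP7B loads copper onto ceruloplasmin (Cp), the main copper protein of plasma, and sends excess copper into bile.

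Mt1 (chromosome 8, 94179082 to 94180327, plus strand, GRCm38) lies 5514 bases downstream of Mt2 (chromosome 8, 94172664 to 94173568, plus strand). Slc30a1 (chromosome 1, 191906767 to 191913247, plus strand) encodes the zinc exporter of the plasma membrane, itself a known MTF1 target. The promoters of these 3 genes are shown because they hold matches to the element through which metals act and because the 3 genes moved unequally below. Each window runs from 250 bases before to 50 bases after the start that RefSeq gives (GRCm38.p6), printed 5′ to 3′ along the gene. Capitals mark matches to the core of the metal response element, TGCACNC or TGCGCNC, on either strand (reverse forms GNGTGCA and GNGCGCA), with overlaps allowed.
Mt1, chr8:94178839-94179138, plus strand: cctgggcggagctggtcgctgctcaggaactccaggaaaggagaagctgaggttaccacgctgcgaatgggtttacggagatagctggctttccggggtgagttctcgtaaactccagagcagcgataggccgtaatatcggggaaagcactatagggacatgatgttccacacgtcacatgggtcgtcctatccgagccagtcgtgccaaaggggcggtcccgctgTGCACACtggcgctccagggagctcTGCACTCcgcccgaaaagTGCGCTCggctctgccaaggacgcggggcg
Mt2, chr8:94172368-94172667, plus strand: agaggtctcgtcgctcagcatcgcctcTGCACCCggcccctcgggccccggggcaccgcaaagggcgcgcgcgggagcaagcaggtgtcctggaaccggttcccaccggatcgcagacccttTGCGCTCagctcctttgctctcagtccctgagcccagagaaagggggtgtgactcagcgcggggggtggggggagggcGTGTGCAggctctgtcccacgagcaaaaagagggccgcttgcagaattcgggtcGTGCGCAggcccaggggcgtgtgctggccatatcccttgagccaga
Slc30a1, chr1:191906531-191906830, plus strand: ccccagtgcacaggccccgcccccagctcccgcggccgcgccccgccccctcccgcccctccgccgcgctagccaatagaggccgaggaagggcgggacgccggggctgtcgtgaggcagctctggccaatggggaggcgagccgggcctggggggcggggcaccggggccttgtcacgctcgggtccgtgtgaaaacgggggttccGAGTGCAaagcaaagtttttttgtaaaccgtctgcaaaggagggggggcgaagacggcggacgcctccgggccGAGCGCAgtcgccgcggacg

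The Mt1 window held 3 matches, the Mt2 window 4 and the Slc30a1 window 2. Of all 32851 promoter windows of that length, 25.7% held at least 1 match, 7.11% at least 2, 1.97% at least 3 and 0.517% at least 4. Slc30a10 had 3 matches, Atp7b had 1, Slc39a8 had 0 and 1 in its 2 windows, and both Cp windows had 0. Slc39a14 was not in the promoter table. A match shows only that the letters are present, and letters outside the window were not searched. Other annotated transcripts start past the ends of these windows, Mt1-203 at 94179211, Mt1-202 at 94179241 and Mt2-202 at 94172860. The bases between the windows and those starts were thus not searched, and the counts do not cover every promoter of these genes.

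Each sample's nuclei were marked with a hashtag antibody, and 4 samples were mixed in each of 6 pools before droplet capture, which tags each RNA molecule with a unique molecular identifier (UMI). The nuclei of the authors' table numbered 20024, 15049 and 18394 in Liver, Cell Suspension and Primary Hepatocytes, of which 15000, 12634 and 14833 were hepatocyte nuclei. The samples held between 2709659 and 32104065 UMIs each, with the lowest depth in Cell Suspension. The summed hepatocyte markers (8 of 8 detected in every sample) had a median of 9397.0 CPM (counts scaled to a common library total) in Liver hepatocyte nuclei and 3465.4 in those of Primary Hepatocytes, so the cultured nuclei kept the hepatocyte markers at a lower level. The summed stellate markers in those nuclei had a median of 50.2 in Liver and 194.2 in Primary Hepatocytes, and the endothelial ones 47.5 and 120.0; their part in the results was not tested. Cultured cells were missing from pools 1 and 6 and tissue from pools 3 and 4, so Liver and Primary Hepatocytes met only in pools 2 and 5. In the table, 337 barcodes occurred in more than 1 pool.

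The values below are hepatocyte UMIs summed per sample, as CPM after TMM scaling, which corrects for library composition. Differences are log2 fold changes with standard errors from edgeR's quasi-likelihood test over all genes, with Benjamini-Hochberg adjusted p, over 8 samples against 8. A change was called at an adjusted p under 0.05. From Liver to Primary Hepatocytes, Mt1, Mt2, Cp and Slc30a1 rose and Slc30a10 and Atp7b fell, 6 of 8 genes against 54.1% of all genes tested (27.4% higher, 26.7% lower). From Liver to Cell Suspension Mt1 and Mt2 rose and no member fell, 2 of 8 against 21.5% of all genes. From Cell Suspension to Primary Hepatocytes Mt2 and Cp rose and Slc30a10, Slc39a14 and Atp7b fell, 5 of 8 against 51.6%. The shares of members called in these fits, which had no block for mouse, were thus not far from those of all genes. With mouse as a block, Cp and Slc39a14 passed as well from Liver to Cell Suspension, where 6098 of 26521 genes passed. The median log2 fold change of the 8 members from Liver to Primary Hepatocytes was 0.45, and that of all genes was 0.043.

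**Figure D1:**
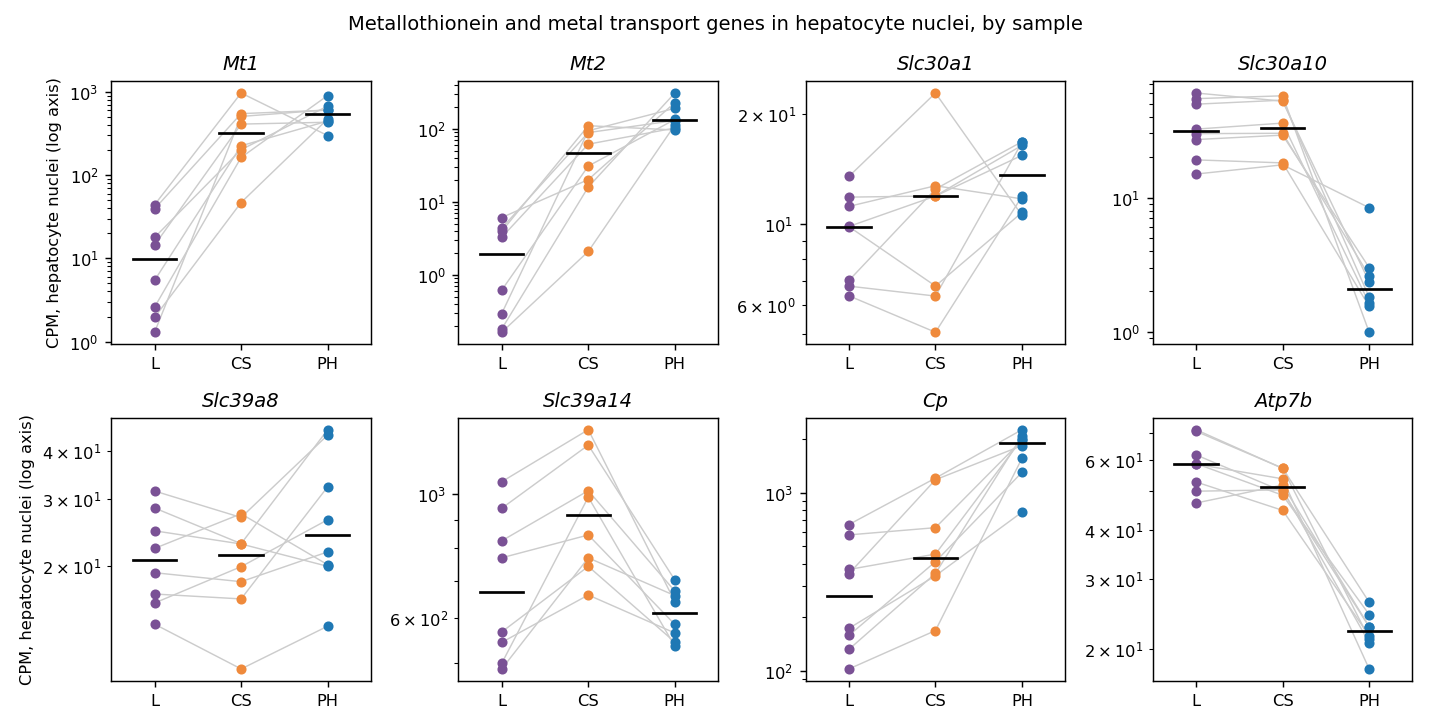
CPM of the 8 genes in hepatocyte nuclei on a log axis, with 1 point per sample for Liver (L), Cell Suspension (CS) and Primary Hepatocytes (PH). The 8 Primary Hepatocytes samples lie above all Liver samples for Mt1, Mt2 and Cp and below them for Slc30a10 and Atp7b, and Mt1 in Cell Suspension spans 46.82 to 967.8 CPM.

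Mt1 was low in Liver hepatocyte nuclei and far higher after isolation. Its level in Liver ranged from 1.295 to 43.95 CPM with a median of 9.929, in Cell Suspension from 46.82 to 967.8 with a median of 317.1 and in Primary Hepatocytes from 297.9 to 902.5 with a median of 537.3. Liver overlapped neither of the other groups, whereas Cell Suspension ranged widely and covered the whole span of Primary Hepatocytes. From Liver to Cell Suspension Mt1 rose by 4.61 on the log2 scale (SE 0.621, adjusted p = 1.5e-06, higher in 8 of 8 mice), and from Liver to Primary Hepatocytes by 5.14 (SE 0.636, adjusted p = 3.52e-08). Between Cell Suspension and Primary Hepatocytes the difference of 0.53 (SE 0.532, adjusted p = 0.438) did not pass the test, although 7 of 8 mice had the higher value in Primary Hepatocytes. It was 1.09 with mouse as a block (SE 0.461, adjusted p = 0.0508), 0.98 in spliced counts (adjusted p = 0.115), 0.97 without mouse 3 (adjusted p = 0.125) and 0.32 with pool as a covariate (adjusted p = 0.687), and passed with library totals alone (1.25, adjusted p = 0.0436), a scaling that put the median of all genes at 0.689.

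Mt2 followed Mt1 out of the tissue and also passed the test from Cell Suspension to Primary Hepatocytes, where Mt1 did not. Whether the 2 genes differed in that step was not tested, and each was higher in 7 of 8 mice. The level of Mt2 ranged from 0.163 to 6.066 CPM in Liver with a median of 1.935, from 2.081 to 109.7 in Cell Suspension with a median of 46.0 and from 95.75 to 307.5 in Primary Hepatocytes with a median of 131.2. Liver and Cell Suspension overlapped only through the lowest Cell Suspension sample, that of mouse 7, and Primary Hepatocytes lay above all Liver samples. Mt2 rose by 4.50 from Liver to Cell Suspension (SE 0.606, adjusted p = 1.5e-06), by 1.60 from there to Primary Hepatocytes (SE 0.511, adjusted p = 0.00908) and by 6.10 over both steps (SE 0.639, adjusted p = 1.36e-09). The last step did not hold for unspliced RNA alone, where it was -0.26. Groups without overlap in the higher direction made up 14.7% of genes tested from Liver to culture and 1.31% from Liver to Cell Suspension. Mt1 and Mt2 are close copies of each other, and how reads common to both were divided is not given in the sources used here.

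The pair varied together from mouse to mouse. Within Liver, Pearson's r between log2(CPM + 1) of Mt1 and Mt2 was 0.921 and Spearman's rho 0.833 (n = 8, exact permutation test, two-sided, p = 0.00868 for r and 0.0154 for rho, adjusted p = 0.026 and 0.0461 over 9 relations). Within Cell Suspension r was 0.984 and rho 0.976 (n = 8, exact permutation p = 4.96e-05 and 0.000397, adjusted p = 0.000446 and 0.00357), and within Primary Hepatocytes r was 0.903 and rho 0.929 (n = 8, exact permutation p = 0.00102 and 0.00223, adjusted p = 0.00458 and 0.01). Without the 2 samples farthest from the median of Mt1, r was 0.932, 0.991 and 0.839. The mice with more metallothionein RNA in tissue were not shown to be those with more after isolation or culture: none of the 6 relations between sample types passed, with r from -0.416 to 0.612. These r were unstable. Without the 2 samples farthest from the median of the earlier sample type, they ran from -0.817 (Mt2, Liver with Primary Hepatocytes) to 0.832 (Mt1, Liver with Cell Suspension), with no test. The samples of a group also differ by pool, so the relations within a group mix mouse and pool.

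The metallothioneins were also abundant outside nuclei, and this differed by pool. Barcodes that are not in the table of nuclei and had 100 to 500 UMIs, taken here as a measure of free RNA, held Mt1 at 23.4 CPM in pool 1 and 18.82 in pool 6, but at 340.3, 1737, 732.1 and 475.4 in pools 2 to 5, which held Primary Hepatocytes. Mt2 was at 3.91 and 3.552 in pools 1 and 6 and at 101.6 to 622.9 in the others. In plain CPM, Liver hepatocyte nuclei were at 17.91 and 7.935 for Mt1 in pools 1 and 6 and at 13.64 and 14.47 in pools 2 and 5, which hold 1 Liver sample each. For Mt2 the same nuclei were at 1.623 and 0.8947 in pools 1 and 6 and at 3.078 and 4.928 in pools 2 and 5, as pooled values higher where cultured cells shared the pool. The Liver values of pools 1 and 6 came mostly from 1 sample each, those of mice 3 and 2. After TMM scaling these were at 43.95 and 39.29 CPM of Mt1 and at 3.937 and 4.333 of Mt2. The Liver samples of pools 2 and 5, mice 4 and 5, were at 3.255 and 6.066 CPM of Mt2, so by sample the pools were not in that order. In plain CPM, Liver endothelial nuclei held Mt1 at 10.9 and 10.44 in pools 1 and 6 and at 57.81 and 63.83 in pools 2 and 5. Cell Suspension hepatocyte nuclei were at 43.58 and 144.6 in pools 1 and 6, with 1 sample each, and between 173.8 and 617.5 in pools 2 to 5.

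Within pools 1 and 6 alone, the difference from Liver to Cell Suspension was 2.75 for Mt1 (adjusted p = 0.187) and 2.74 for Mt2 (adjusted p = 0.173), and no member passed the test with 2 Cell Suspension and 6 Liver samples. Within pools 2 and 5, Mt1 rose by 4.63 (adjusted p = 1.35e-06) and Mt2 by 4.54 (adjusted p = 1.36e-06) from Liver to Primary Hepatocytes. With pool as a covariate over all samples the rises to Primary Hepatocytes were 3.81 and 4.18, and those to Cell Suspension 3.49 and 3.07 (adjusted p between 8.46e-06 and 0.00112). Primary Hepatocytes nuclei in pools 2 to 5 were at 640.1, 895.7, 729.6 and 496.5 plain CPM for Mt1 and at 151.3, 295.4, 163.9 and 152.3 for Mt2. Free barcodes were above them in pools 3 and 4 for Mt1 and in pools 3 to 5 for Mt2. The part of free RNA in the levels of the 3 groups was not tested.

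**Figure D2:**
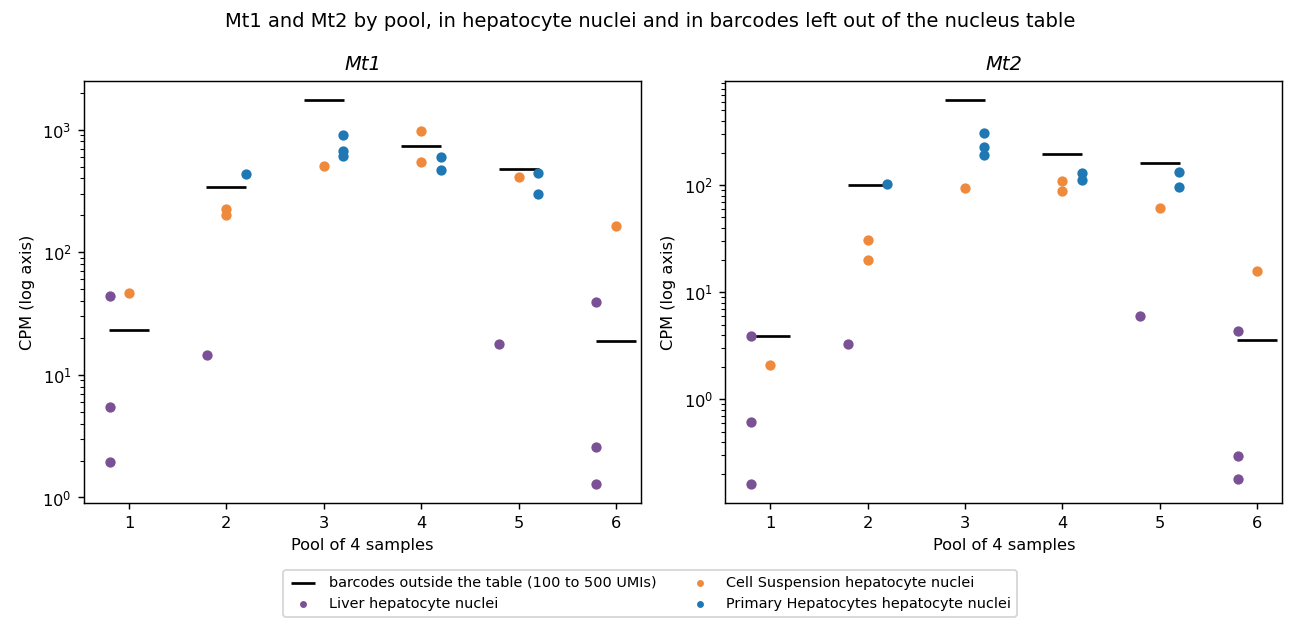
Mt1 and Mt2 CPM on a log axis against pool number, with 1 point per sample for hepatocyte nuclei (CPM after TMM scaling) and a black bar for barcodes of 100 to 500 UMIs outside the table of nuclei (plain CPM). The bars and the Cell Suspension points are lowest in pools 1 and 6. The Liver points of pools 2 and 5 lie within the range of those in pools 1 and 6 for Mt1, and for Mt2 that of pool 5 is the highest Liver point, at 6.066 CPM.

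At equal depth the share of nuclei with an Mt1 UMI was ordered like the median summed level. Thinning is without TMM scaling, whose median factors were 0.832 in Cell Suspension and 1.31 in Primary Hepatocytes. The Mt1 difference between these 2 groups did not pass after TMM scaling, and it is not read from the shares. Free RNA can also put a UMI into a nucleus, so these are not shares of nuclei that express the gene. With each nucleus thinned to 1000 UMIs, 1.145% of Liver hepatocyte nuclei held an Mt1 UMI (95% Wilson interval 0.9847 to 1.332), against 20.9% in Cell Suspension (20.19 to 21.64) and 48.77% in Primary Hepatocytes (47.96 to 49.57). Unthinned shares were 8.093%, 48.12% and 91.86%. The intervals cover counting error only, and thinning left out 508, 474 and 83 nuclei. Over samples the thinned share ran from 3.246% to 44.01% in Cell Suspension and from 32.98% to 64.22% in Primary Hepatocytes. The same shares in endothelial nuclei were 2.163%, 15.42% and 41.11%, with median depths of 3141.5, 1506.5 and 1377.0 UMIs against 7695.5, 3643.0 and 6419.0 in hepatocytes. As medians over samples, the hepatocyte and endothelial shares were 1.357% and 1.181% in Liver, 19.07% and 8.223% in Cell Suspension and 49.17% and 34.44% in Primary Hepatocytes, with ranges that overlapped in each group. In Liver the pooled shares and the medians are in opposite order, and none is read. Mt2 UMIs were found in 24.66% of thinned Primary Hepatocytes nuclei with an Mt1 UMI and in 16.38% of those without, and in Cell Suspension in 8.891% and 3.587%. These values pool the nuclei of all samples in a group and were not split by sample. The samples differed in both genes, with thinned Mt2 shares from 0.3091% to 12.35% in Cell Suspension. The values therefore do not show whether the 2 RNAs occur together in single nuclei.

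By the likeness of log levels over the 24 hepatocyte sums, the genes nearest to Mt1 among 8600 genes that averaged 10 CPM or more were Gm45774 (r = 0.977), Mt2 (0.962) and Mafk (0.95), and those nearest to Mt2 were Saa1 (0.965), Saa2 (0.963) and Mt1 (0.962). The samples share pools and depth, and the correlations are descriptions. Gm45774 (chromosome 8, 94170748 to 94173412, minus strand) overlaps Mt2 on the other strand, and whether the counting used strand is not given in the sources used here, so reads of the 2 genes cannot be told apart. It had medians of 0.3722, 35.11 and 46.23 CPM in Liver, Cell Suspension and Primary Hepatocytes. Saa1, an acute-phase protein gene, had medians of 6.382, 28.01 and 118.6, and Mafk, a small Maf transcription factor, 12.02, 30.68 and 35.35. With each group's mean removed, Mt1 was nearest to Mt2 (r = 0.901), Gm45774 (0.886) and Saa1 (0.82), and Mt2 to Saa2 (0.91), Mt1 (0.901) and Fam8a1 (0.901).

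The exporters behaved differently from the metallothioneins and from each other. Slc30a10 (chromosome 1, 185454848 to 185468762, plus strand) encodes a manganese exporter of the canalicular membrane, and it was almost lost in culture. Its level ranged from 14.96 to 60.03 CPM in Liver with a median of 31.11, from 17.52 to 57.22 in Cell Suspension with a median of 32.96 and from 0.993 to 8.394 in Primary Hepatocytes with a median of 2.083. Every Primary Hepatocytes sample was below every sample of both other groups, and Liver and Cell Suspension covered the same span. Slc30a10 fell by 3.68 from Liver to Primary Hepatocytes (SE 0.366, adjusted p = 4.6e-10) and by 3.69 from Cell Suspension (SE 0.37, adjusted p = 6.16e-10), lower in 8 of 8 mice both times. Groups without overlap in the lower direction made up 16% and 12.4% of all genes. Its difference between Liver and Cell Suspension was 0.01 (SE 0.323, adjusted p = 0.989). The highest Primary Hepatocytes value, 8.394 in mouse 6, stood apart from the next, 3.005. With each mouse left out in turn, the log2 fold change from Liver ranged from -4.27 to -3.44.

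Slc30a1 moved little by comparison. It ranged from 6.358 to 13.49 CPM in Liver with a median of 9.837, from 5.054 to 22.82 in Cell Suspension with a median of 11.93 and from 10.55 to 16.79 in Primary Hepatocytes with a median of 13.65, and the 3 groups overlapped. It rose by 0.53 from Liver to Primary Hepatocytes (SE 0.211, adjusted p = 0.0327, higher in 7 of 8 mice). The call was lost without mouse 1 (0.43), mouse 5 (0.52) or mouse 6 (0.43), within pools 2 and 5 (0.17, adjusted p = 0.512) and in spliced (0.36, adjusted p = 0.143) or unspliced counts alone (0.05, adjusted p = 0.91), and the direction turned with pool as a covariate (-0.11). The other 2 steps did not pass, at 0.27 (SE 0.22, adjusted p = 0.448) to Cell Suspension and 0.26 (SE 0.216, adjusted p = 0.332) from there to Primary Hepatocytes. Slc30a1 and Slc30a10 are each overlapped by a gene on the other strand, 1700034H15Rik and Gm2061.

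Of the ZIP importers, Slc39a14 (chromosome 14, 70303469 to 70351425, minus strand), which imports zinc, manganese and non-transferrin iron, ranged from 487.1 to 1052 CPM in Liver with a median of 668.2, from 660.2 to 1303 in Cell Suspension with a median of 916.3 and from 534.4 to 702.3 in Primary Hepatocytes with a median of 613.7. In 8 of 8 mice Cell Suspension was the higher of the fresh samples and was also above Primary Hepatocytes, though the groups overlapped. Slc39a14 fell by 0.62 from Cell Suspension to Primary Hepatocytes (SE 0.165, adjusted p = 0.00191), and its differences from Liver, 0.41 in Cell Suspension (SE 0.164, adjusted p = 0.0776) and -0.21 in Primary Hepatocytes (SE 0.164, adjusted p = 0.294), did not pass. The first of these passed with mouse as a block (0.42, adjusted p = 0.0119), RLE size factors (0.49, adjusted p = 0.0317), DESeq2 (0.49, adjusted p = 0.0159), filterByExpr (0.49, adjusted p = 0.0178) and samples thinned to the shallowest (0.50, adjusted p = 0.0218), and did not with pool as a covariate (0.38, adjusted p = 0.209). Direction depended on the scaling: with library totals alone, which moved the median of all genes to 0.569 and 0.689 in the comparisons of Primary Hepatocytes with Liver and with Cell Suspension, Slc39a14 was at 0.34 and 0.07, both below that median. In spliced counts alone its difference from Cell Suspension was 0.01.

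Slc39a8 (chromosome 3, 135825279 to 135888572, plus strand), the importer of zinc and manganese often called ZIP8, ranged from 14.12 to 31.4 CPM in Liver with a median of 20.74, from 10.79 to 27.39 in Cell Suspension with a median of 21.4 and from 13.95 to 45.38 in Primary Hepatocytes with a median of 24.11. The groups overlapped and no step passed the test, with log2 differences of -0.08 (SE 0.22, adjusted p = 0.863) to Cell Suspension, 0.44 (SE 0.219, adjusted p = 0.0957) from there to culture and 0.36 (SE 0.213, adjusted p = 0.159) from Liver to culture. With mouse as a block, which the shared liver of each mouse number allows, the culture steps passed at 0.38 (adjusted p = 0.023) and 0.33 (adjusted p = 0.0407). Over many genes, however, the mouse number was hardly seen between fresh and cultured samples, as given under the processing. Gm43428 and Gm43429 overlap Slc39a8 on the same strand and 4933401H06Rik on the other.

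The copper genes moved in opposite directions. Cp (chromosome 3, 19957054 to 20009145, plus strand) ranged from 102.3 to 662.6 CPM in Liver with a median of 261.9, from 168.1 to 1208 in Cell Suspension with a median of 431 and from 777.8 to 2260 in Primary Hepatocytes with a median of 1905. All Primary Hepatocytes samples were above all Liver samples, and the value went up at each step in 8 of 8 mice. Cp rose by 2.45 from Liver to Primary Hepatocytes (SE 0.386, adjusted p = 2.45e-06; 1.71 with pool as a covariate, SE 0.501, adjusted p = 0.00677) and by 1.54 from Cell Suspension (SE 0.374, adjusted p = 0.000837). The first step, 0.91 (SE 0.369, adjusted p = 0.0802), passed with mouse as a block (0.94, adjusted p = 0.00345) and was -0.01 within pools 1 and 6 (adjusted p = 0.994). Free barcodes held Cp at 338.2 and 222.6 CPM in pools 1 and 6 and at 790.2 to 1813 in pools 2 to 5. Hps3 overlaps Cp on the other strand.

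Atp7b (chromosome 8, 21992785 to 22060305, minus strand), the copper pump defective in Wilson disease, fell evenly. It ranged from 46.66 to 71.45 CPM in Liver with a median of 58.57, from 44.71 to 57.13 in Cell Suspension with a median of 51.09 and from 17.79 to 26.22 in Primary Hepatocytes with a median of 22.15. The spread within each group was narrow, and Primary Hepatocytes lay below all other samples. Atp7b fell by 1.41 from Liver (SE 0.101, adjusted p = 3.13e-13) and by 1.22 from Cell Suspension (SE 0.101, adjusted p = 1.08e-11). The difference between the fresh groups, -0.19 (SE 0.0994, adjusted p = 0.207), did not pass.

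Spliced and unspliced RNA of the same gene did not always change alike. Over all genes the spliced share of hepatocyte UMIs was 17.67%, 24.34% and 25.52% in the order Liver, Cell Suspension, Primary Hepatocytes. For Slc39a14 it was 11.84%, 15.11% and 21.91%: from Liver to Primary Hepatocytes spliced RNA rose by 0.41 (adjusted p = 0.039) and unspliced RNA was at -0.57 (adjusted p = 0.00352; 58.7% of all genes passed in spliced and 53.4% in unspliced RNA), and the difference between these changes was 0.78 (SE 0.133, adjusted p = 1.1e-06). For Cp the difference was -0.60 (SE 0.147, adjusted p = 0.00085), with a spliced share of 16.37%, 18.51% and 17.98%. Spliced and unspliced sums were scaled as separate libraries, so these differences are relative to all genes of each form. The spliced share of Cp itself did not fall. Slc39a14 and Cp were 2 of the 7 members for which the difference could be tested, against 17.5% of all genes.

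In the step to Cell Suspension, where total Slc30a10 and Slc30a1 RNA did not change beyond the test, their unspliced RNA did. Unspliced Slc30a10 RNA was at -0.97 (adjusted p = 0.0424) and unspliced Slc30a1 RNA at 1.03 (adjusted p = 0.00804), where 22.5% of all genes passed, and the spliced minus unspliced differences were 1.04 (SE 0.175, adjusted p = 1.37e-06) and -1.32 (SE 0.23, adjusted p = 3e-06). The spliced share of Slc30a10 UMIs went from 47.25% in Liver to 66.41% in Cell Suspension and that of Slc30a1 from 85.49% to 77.21%. From Cell Suspension to Primary Hepatocytes both turned back, at -1.09 and 1.45 (adjusted p = 0.000897 and 8.14e-08). Mt2 was at -1.47 in the first step (SE 0.432, adjusted p = 0.00959) and 1.78 in the second (SE 0.217, adjusted p = 1.2e-11), with 6, 153 and 344 unspliced UMIs in the 3 groups. Among all genes 13.4% passed in the first step and 15.1% in the second. Mt1 had 0 unspliced UMIs in every group, and the annotation holds an Mt1 transcript of 1 exon that runs across the introns of the others, so its 2 forms could not be compared.

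Within the liver lobule, most members were higher towards the portal side. Hepatocyte nuclei of each Liver sample were ranked by genes of the pericentral and periportal zones, none of them a member, divided into 3 equal parts, and the outer parts were compared with mouse as a block. Slc30a10 had the widest difference: 5.689 to 38.01 CPM (median 15.82) in the central part and 20.66 to 76.9 (median 39.96) in the portal part, a log2 difference of 1.15 (SE 0.0924, adjusted p = 5.44e-11, higher in 8 of 8 mice). Mt1 was higher by 0.85 (SE 0.145, adjusted p = 4.13e-05, 7 of 8 mice) and Mt2 by 0.97 (SE 0.266, adjusted p = 0.00758, 6 of 8 mice). These 2 rest on few UMIs in the Liver samples of mice 1, 6, 7 and 8. Before division into parts, their hepatocyte nuclei held 5, 3, 3 and 6 Mt2 UMIs and 22, 43, 36 and 53 Mt1 UMIs. The directions in these mice are therefore imprecise. Atp7b, Slc39a14, Slc39a8 and Cp were higher by 0.33 to 0.36 (adjusted p between 4.41e-05 and 0.00158), and Slc30a1 was at 0.08 (adjusted p = 0.736). Thus 7 of 8 members passed, all towards the portal side, where 9.95% of all genes were higher and 10.3% lower.

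In Cell Suspension, 4 of the 8 passed, all on the portal side, against 9.21% of all genes higher and 7.93% lower. Slc30a10 was higher by 1.23 (adjusted p = 3.74e-16), Mt2 by 0.85 (adjusted p = 6.92e-09), Mt1 by 0.79 (adjusted p = 5.43e-10) and Atp7b by 0.41 (adjusted p = 0.00149). Mt1 there ranged from 16.47 to 620.0 CPM (median 147.9) in the central part and from 71.98 to 815.3 (median 334.7) in the portal part, higher in 8 of 8 mice. Mt1 and Mt2 thus passed towards the portal side both before and after isolation, with few UMIs in several Liver samples. The part of free RNA in these differences was not tested.

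In Liver tissue Slc39a8 was higher in endothelial than in hepatocyte nuclei, and Slc30a10, Atp7b and Slc39a14 were highest in hepatocyte nuclei. In plain CPM, endothelial nuclei held Slc39a8 at 68.67 to 100.7 (median 87.76) and hepatocyte nuclei at 13.01 to 26.69 (median 19.14), with no overlap and a log2 difference of 1.77 (SE 0.147, adjusted p = 2.89e-16, 8 of 8 mice). It was lower than in hepatocytes in Kupffer nuclei (-1.53) and stellate nuclei (-1.88). Slc30a10, Atp7b and Slc39a14 were lower than in hepatocytes in all 3 other types, with log2 differences from -3.35 to -2.60, and Cp was lower in endothelial (-2.31) and Kupffer nuclei (-2.17), with -0.38 (adjusted p = 0.0829) in stellate nuclei. Slc30a1 was lower in endothelial (-0.64, adjusted p = 0.0324) and stellate nuclei (-2.74) and at -0.09 in Kupffer nuclei, and Mt1 and Mt2 did not pass in any type. Calls among all genes were 48.2%, 43.7% and 42.3% in endothelial, Kupffer and stellate nuclei. The summed hepatocyte markers in Liver endothelial nuclei had a median of 1980.3 CPM, and their part in the low values of other members there was not tested.

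**Figure D3:**
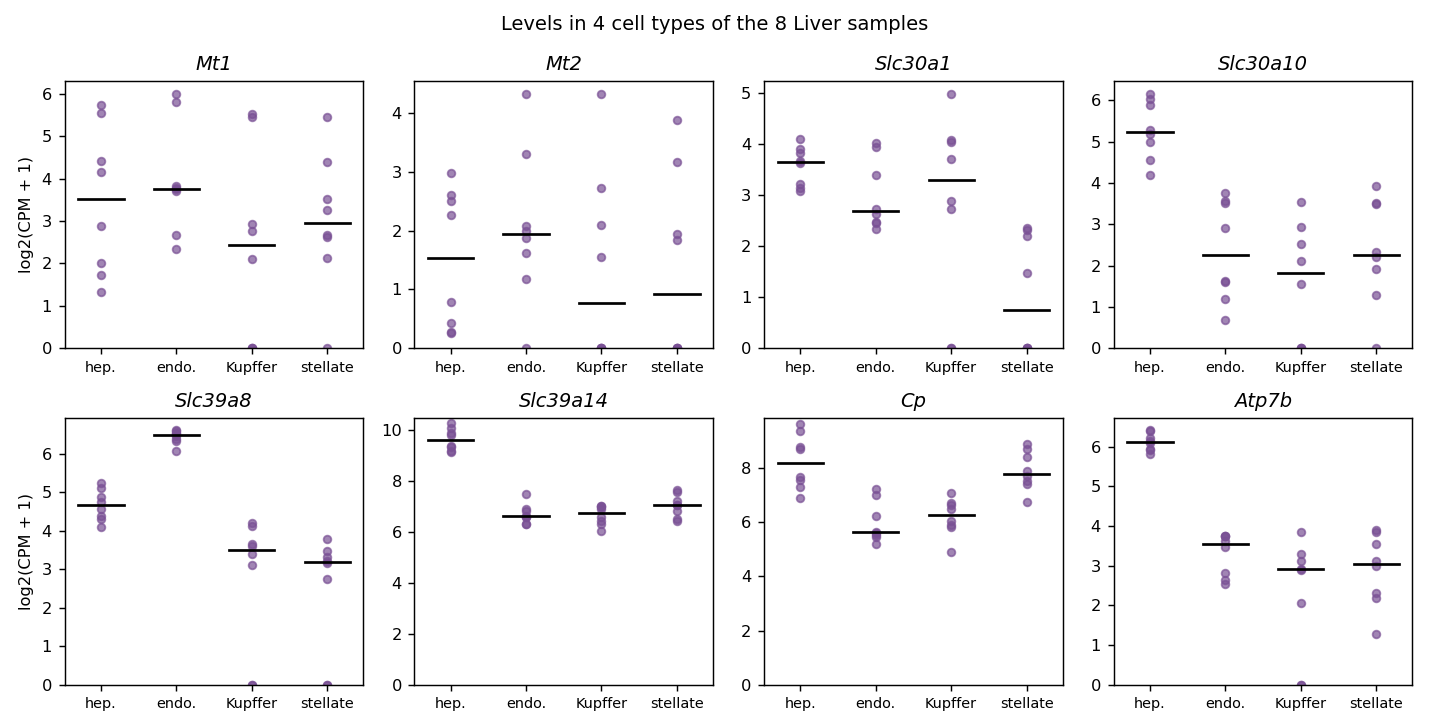
Levels of the 8 genes as log2(CPM + 1), with CPM after TMM scaling, in hepatocyte, endothelial, Kupffer and stellate nuclei of Liver, with 1 point per sample. Slc39a8 is highest in endothelial nuclei, while Slc30a10, Slc39a14 and Atp7b are highest in hepatocyte nuclei.

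A small cluster of 157 Liver nuclei rich in mesothelial markers, which the authors' table counts with biliary cells, held Slc39a8 at 876.9 CPM (461 UMIs, exact Poisson interval 798.7 to 960.7), and in the 4 Liver samples with enough such nuclei from 431.8 to 1377. The 63 nuclei of the other biliary cluster held Cp at 1392 CPM in Liver (interval 1223 to 1577). These clusters are small, their intervals cover counting error only, and no test was made.

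The cells that came along with the hepatocytes showed part of the same pattern. Of the 1809 endothelial nuclei of Primary Hepatocytes, 1733 were in deposited cluster 12, which was read as endothelial from its markers and held 2 Liver nuclei, so the class is made of different clusters in tissue and culture. In endothelial nuclei, Mt1 ranged from 4.211 to 65.79 CPM in Liver with a median of 13.18, from 18.52 to 436.4 in Cell Suspension with a median of 150.4 and from 232.8 to 966.9 in Primary Hepatocytes with a median of 465.3. From Liver to Primary Hepatocytes Mt1 rose by 4.42 (SE 0.406, adjusted p = 5.92e-12), Mt2 by 5.15 (SE 0.44, adjusted p = 9.37e-13), Cp by 3.0 (SE 0.29, adjusted p = 2.17e-11), Slc30a1 by 1.09 (adjusted p = 0.00795) and Slc39a14 by 1.07 (adjusted p = 2.25e-05). These were 5 of 8, with 15.4% of all genes higher. Slc39a8 went the other way, from 69.48 to 99.93 CPM in Liver (median 92.43) to 10.7 to 70.6 in Primary Hepatocytes (median 29.22), and fell by 1.60 (SE 0.236, adjusted p = 4.89e-07), 1 of 8 with 18.4% of all genes lower. The endothelial median of Mt1 in Primary Hepatocytes, 465.3 CPM, lay within the 340.3 to 1737 CPM of free barcodes in the pools with cultured cells, and the summed hepatocyte markers in these nuclei had a median of 2476.0 CPM. The part of free RNA in the endothelial rises was not tested.

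Whether the change differed between the cell types was tested directly, as the hepatocyte minus the endothelial change. From Liver to Primary Hepatocytes it was 1.88 for Slc39a8 (SE 0.235, adjusted p = 3.06e-11), -1.28 for Slc39a14 (SE 0.197, adjusted p = 3.37e-08), -1.66 for Atp7b (SE 0.374, adjusted p = 0.000187) and -2.07 for Slc30a10 (SE 0.763, adjusted p = 0.0328), 4 of 8 against 25.8% of all genes. For Mt1 (0.82, adjusted p = 0.0505), Mt2 (0.73, adjusted p = 0.138) and Cp (-0.50, adjusted p = 0.13) it did not pass. Slc30a10 and Atp7b had few UMIs in endothelial nuclei. Unthinned, Slc30a10 was seen in 1.496% of Liver and 0.387% of Primary Hepatocytes endothelial nuclei, and Atp7b in 2.385% and 1.824%. The endothelial change of these genes is thus imprecise, and the part of free RNA in it was not tested. In the isolation step the metallothioneins rose more in hepatocyte than in endothelial nuclei, by 1.87 for Mt1 (SE 0.347, adjusted p = 8.98e-05) and 1.48 for Mt2 (SE 0.408, adjusted p = 0.0216), 2 of 8 against 2.8% of all genes, whose median was 0.192. With DESeq2's size factors (RLE) instead of TMM 1 of these 2 passed. From Cell Suspension to Primary Hepatocytes 6 of 8 members passed, against 20% of all genes, of which Slc39a8 was positive (1.74) and Mt1 (-1.05), Mt2 (-0.75), Slc39a14 (-1.21), Atp7b (-1.12) and Slc30a10 (-2.44) were negative. The median of this difference over all genes was -0.295, and under RLE scaling 2 of the 8 passed.

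**Figure D4:**
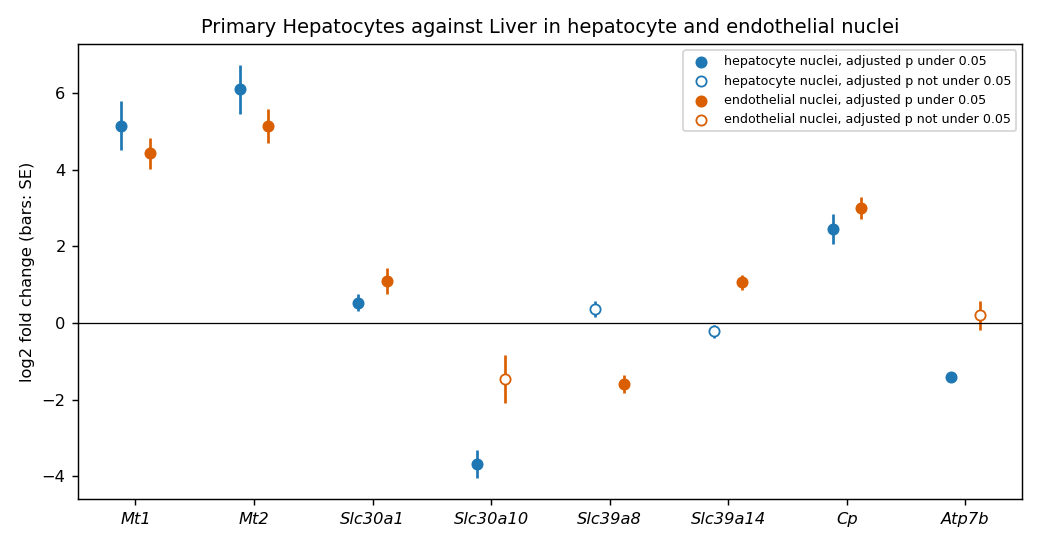
Log2 fold change from Liver to Primary Hepatocytes in hepatocyte and endothelial nuclei for the 8 genes, with bars of 1 SE and filled points where the adjusted p was under 0.05. Slc39a8 fell by 1.60 in endothelial nuclei and was at 0.36 in hepatocyte nuclei, and Slc39a14 was at 1.07 and -0.21.

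Kupffer and stellate nuclei were tested between Liver and Cell Suspension only. Cultured stellate nuclei, 192 in Primary Hepatocytes against 148 in Cell Suspension and 880 in Liver, were not tested and held Mt1 at a median over samples of 754.5 plain CPM (range 408.7 to 1412), Mt2 at 336.4 and Cp at 945.6, against 6.778, 1.274 and 229.3 in Liver stellate nuclei. Mt1 rose by 2.96 (SE 0.494, adjusted p = 0.000141) and Mt2 by 2.42 (SE 0.644, adjusted p = 0.0439) in Kupffer nuclei and by 2.79 (SE 0.482, adjusted p = 0.000191) and 3.10 (SE 0.703, adjusted p = 0.00685) in stellate nuclei, among 1.08% and 0.903% of all genes called higher. In endothelial nuclei the same step gave 2.90 (adjusted p = 3.94e-06) and 2.93 (adjusted p = 0.000164), with 2.03% of all genes higher. Thus Mt1 and Mt2 passed the test in all 4 cell types after isolation. For Kupffer and stellate nuclei this was not split by pool. Most Cell Suspension samples shared pools with cultured cells and most Liver samples did not, and the part of free RNA was not tested. Stellate nuclei of Cell Suspension came from 7 samples. Unthinned, Mt2 was seen in 6.14% of 342 Kupffer and 8.108% of 148 stellate nuclei of Cell Suspension. By pool, Cell Suspension endothelial nuclei held Mt1 at 37.25 and 18.34 plain CPM in pools 1 and 6 and at 121.1 to 392.6 in pools 2 to 5, with Liver endothelial nuclei at 10.9 and 10.44 in pools 1 and 6. Mt2 was at 2.66 in pool 1, where Liver was at 2.777, and at 6.113 in pool 6, where Liver was at 1.566. In pools 2 to 5 it was at 13.25 to 125.4, with the 13.25 of pool 5 below the 19.27 of Liver there. Slc30a1 in the same Cell Suspension nuclei was also at 2.66 and 6.113 in pools 1 and 6, and at 6.626 in pool 5. The Mt2 values of these pools thus rest on very few UMIs, and their order against Liver is not read. The higher endothelial levels of Cell Suspension were thus in pools that also held cultured cells, and the part of free RNA was not tested. Cp also rose in Kupffer nuclei (1.35, adjusted p = 0.00214) and endothelial nuclei (1.43, adjusted p = 0.00143). In plain CPM, Cell Suspension endothelial nuclei held Cp at 58.53 and 55.02 in pools 1 and 6, where Liver was at 51.7 and 42.28. In pools 2 to 5 they were at 154.7 to 338.0, with Liver at 134.3 and 148.7 in pools 2 and 5. The part of free RNA in the Cp rise was not tested. The summed hepatocyte markers in endothelial nuclei had medians of 1980.3 CPM in Liver and 2920.8 in Cell Suspension, and their part was not tested. In sums over all nuclei, in which fewer cells of a type and less RNA per cell cannot be told apart, the same 4 members rose and the same 2 fell from Liver to Primary Hepatocytes (28.6% and 27.1% of all genes), and from Liver to Cell Suspension Cp (1.04, adjusted p = 0.0382) and Slc39a14 (0.54, adjusted p = 0.0285) rose with the metallothioneins (8.01% of all genes).

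Among the cultured hepatocytes, the deposited clusters held different mixes of these RNAs. Clusters 0, 1, 14 and 17, which were read as hepatocytes from their markers, had 5961, 5846, 1682 and 1271 Primary Hepatocytes nuclei. Mt1 had medians over 8 samples of 633.5, 843.8, 698.2 and 1180 plain CPM in these 4. It was at 1461 (range 640.9 to 2836) in cluster 8, whose 1450 Primary Hepatocytes nuclei were left unnamed and whose best marker list was that of hepatocytes. Over all its nuclei, cluster 8 had a median of 1608 UMIs, at a median of 0.377 times that of their own samples. Its leading genes were satellite and mitochondrial ones, such as Gm10800 and mt-Atp6. The part of free RNA in its Mt1 level was not tested. Of the 4 clusters read as hepatocytes, Cp was lowest in cluster 17, at 3121, 1846, 1397 and 324.8 in the same order, and Slc39a8 was highest in cluster 1, at 9.806, 61.73, 40.29 and 15.12. In cluster 0 Slc39a8 ranged from 6.868 to 19.74 over the samples and in cluster 1 from 25.46 to 155.6. Slc30a10 was low in each, between 1.834 and 3.408. The clusters were made from these same nuclei and the differences between them are descriptions.

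**Figure D5:**
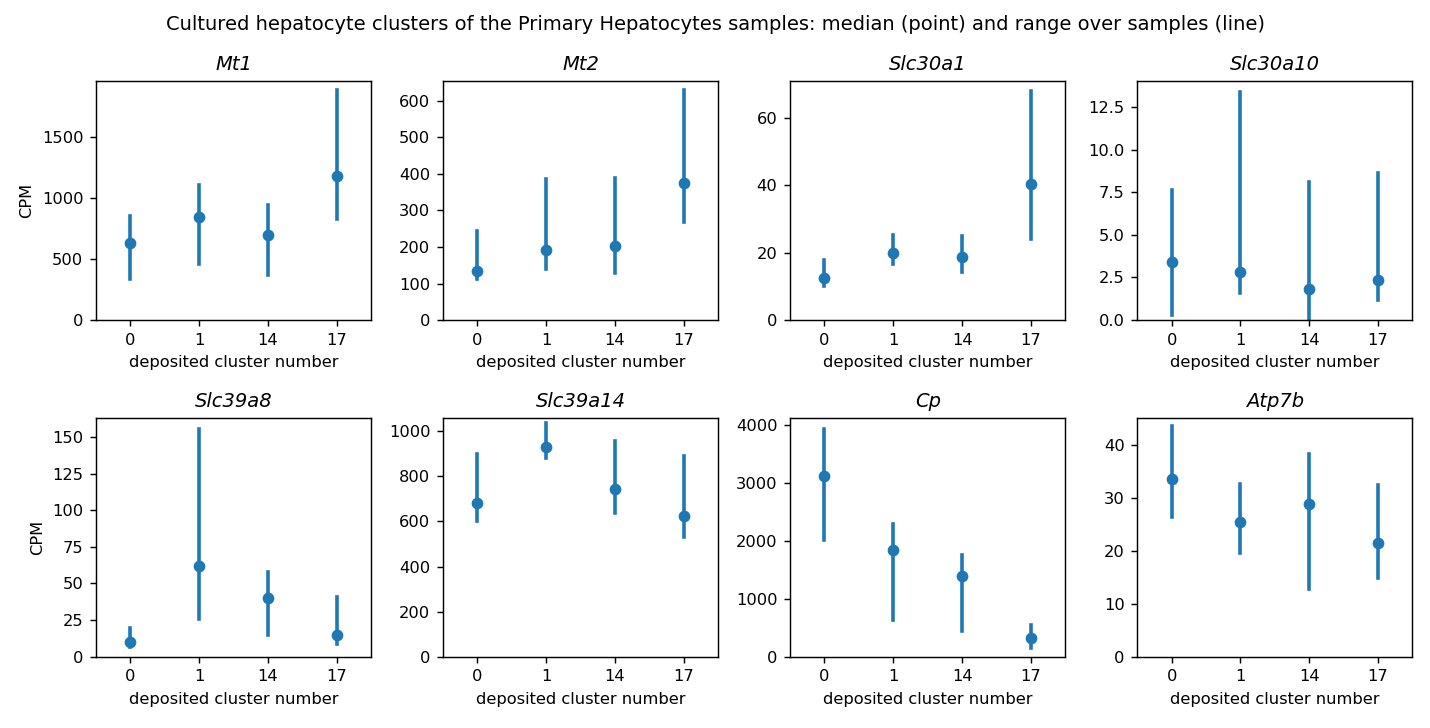
Plain CPM of the 8 genes in the 4 cultured hepatocyte clusters of the Primary Hepatocytes samples, as median (point) and range (line) over the samples. Cp falls from 3121 in cluster 0 to 324.8 in cluster 17, and Slc39a8 is highest in cluster 1 at 61.73.

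The other genes of metal handling, from lists written beside the members, moved both ways in hepatocyte nuclei. From Liver to Primary Hepatocytes, 7 of 20 other zinc transporters rose and 9 fell, and 3 of 14 copper genes rose and 8 fell, against 27.4% and 26.7% of all genes. Their median log2 changes were -0.41 and -0.55, and that of all genes was 0.043. Mtf1, the metal-sensing factor, had medians of 48.56, 38.2 and 44.53 CPM in Liver, Cell Suspension and Primary Hepatocytes and fell by 0.34 from Liver to Cell Suspension (SE 0.0949, adjusted p = 0.00817). Its differences of Primary Hepatocytes from Liver (-0.16, adjusted p = 0.166) and from Cell Suspension (0.19, adjusted p = 0.102) did not pass. Mt3 and Mt4, the remaining metallothioneins, had 4 and 1 UMIs over the Liver samples, 3 and 1 in Cell Suspension and 82 and 51 in Primary Hepatocytes. They reached the minimum of 10 counts only through Primary Hepatocytes, so their calls are not read as a result.

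Of the zinc transporters, Slc39a10, an importer of the plasma membrane, rose (medians 12.3, 7.094 and 29.97 CPM, log2 1.38, adjusted p = 8.42e-10), as did the vesicular exporter Slc30a4 (8.164, 7.149 and 19.91, log2 1.07, adjusted p = 4.97e-07). Slc30a4 reached the 10 CPM set for naming a gene only through Primary Hepatocytes, with means of 8.705 in Liver and 7.279 in Cell Suspension. The mean of Slc39a10 also leaned on that group, with 12.6 in Liver and 7.122 in Cell Suspension. That both genes are named is therefore not read as a result. Slc39a6, another plasma membrane importer, averaged 8.263 CPM over the 24 samples, below the 10 CPM set for naming a gene, and is given here, like Cutc, Slc39a2 and Sco2 below, after its values were seen. It rose by 3.49 (medians 1.729, 2.221 and 20.69, SE 0.169, adjusted p = 4.54e-17), with every Primary Hepatocytes sample (18.48 to 23.45) above every Liver sample (1.156 to 3.179). Slc39a11 (195.3, 213.9 and 81.98, log2 -1.19, adjusted p = 1.12e-10) and the Golgi transporter Slc30a6 (26.44, 15.85 and 12.46, log2 -1.0, adjusted p = 9.08e-09) fell. The copper importer Slc31a1 fell by 2.10 (medians 84.91, 45.88 and 21.21, adjusted p = 1.16e-15), and Ccs, the chaperone that loads copper into superoxide dismutase, fell by 2.59 (170.3, 168.2 and 34.13, adjusted p = 1.46e-10). The copper chaperone Atox1 (29.65, 25.77 and 59.38, log2 1.00, adjusted p = 1.58e-07) and the pump Atp7a (32.39, 29.58 and 43.23, log2 0.49, adjusted p = 0.00187) rose, so the 2 copper pumps changed in opposite directions. Mia2, an export protein of the endoplasmic reticulum that the list holds although it does not handle copper itself, fell by 1.67 (1035, 1026 and 329.9, adjusted p = 2.72e-14). Of the genes under 10 CPM, Cutc fell by 2.35 (medians 16.9, 6.811 and 3.397, SE 0.123, adjusted p = 2.45e-16), with every Liver sample (14.16 to 20.36) above every Primary Hepatocytes sample (2.442 to 3.68). The zinc transporter Slc39a2 fell by 1.81 (adjusted p = 7.89e-08) and Sco2, a copper protein of mitochondria, by 1.61 (adjusted p = 0.000256).

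After isolation, 1 of the 20 zinc transporters rose and 6 fell, and 0 of the 14 copper genes rose and 6 fell, against 7.69% of all genes higher and 13.8% lower. From Cell Suspension to Primary Hepatocytes 7 rose and 7 fell among the zinc transporters and 6 and 6 among the copper genes, against 27.6% and 24%.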

How the data were processed

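Nuclei of 24 hashtagged samples (8 mice, 3 sample types) were sequenced in 6 pools of 4. The authors quantified 3′ reads with Salmon Alevin and Alevin-fry on spliced and unspliced GRCm38 transcripts (bcl2fastq 2.19.0 per the labels), and the deposited matrices hold raw counts of UMIs per barcode for spliced, unspliced and ambiguous RNA. Versions not named here are not given in the sources used here. Demultiplexing, doublet removal, clusters and cell types are those of the authors' deposited table, and its 53467 nuclei were used unfiltered. The 6 hashtag libraries were not used. Cell types of nuclei named only as cultured were set from marker lists, and 1 such cluster stayed unnamed and was left out. One hashtag label, CD2, was read as Cell Suspension of mouse 2.

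The 3 RNA forms were added and summed per sample and cell type (at least 10 nuclei). Genes with at least 10 counts were tested with edgeR 4.0.16 (TMM, quasi-likelihood, sample type alone, Benjamini-Hochberg, threshold 0.05) in R 4.3.3. DESeq2 1.42.0 and the other alternatives are in the closing section. Comparisons between cell types, zones and RNA forms had mouse or sample as a block. For the zones, nuclei of at least 1000 UMIs were scored after thinning to 1000. The tests were tried on simulated counts first. Sums and descriptions were made with pandas 2.3.3, scipy 1.17.1 and numpy 2.4.6 under Python 3.11.15, and figures with matplotlib 3.10.9.

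The members and lists were chosen with earlier results of these data known. All members are named, and of the other metal genes Mtf1, Slc31a1, Atp7a, Atox1 and those with a mean of at least 10 CPM over the 24 hepatocyte sums that passed with a log2 change of at least 1 from Liver to Primary Hepatocytes. Mt3, Mt4, Slc39a6, Slc39a2, Cutc and Sco2, all below that mean and past that change, were added after their values were seen.

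A mouse number stands for 1 liver throughout, which is the source of the pairing. Across 3841 genes their deviations from the group mean correlated at 0.436 to 0.903 between Liver and Cell Suspension, at -0.0756 to 0.155 between Liver and Primary Hepatocytes and at -0.133 to 0.135 between Cell Suspension and Primary Hepatocytes. Summed counts per sample, 2709659 to 32104065, set the precision, and UMI intervals cover counting error only.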

Additional observations from a re-analysis of the deposited data

Results flagged for a closer look

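In 24 groups of 8 samples (8 genes, 3 sample types, hepatocyte nuclei), 2 values lay far from the rest of their group. Slc30a1 was at 22.82 CPM in Cell Suspension of mouse 3, with the next highest at 12.72, and Slc30a10 was at 8.394 CPM in Primary Hepatocytes of mouse 6, with the next at 3.005. Chance flags about 1 in 20 groups.

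The change between sample types differed between hepatocyte and endothelial nuclei in 12 cases by a test of the difference itself (log2, hepatocyte minus endothelial change). From Liver to Primary Hepatocytes it was -2.07 for Slc30a10, 1.88 for Slc39a8, -1.66 for Atp7b and -1.28 for Slc39a14. From Cell Suspension to Primary Hepatocytes it was -2.44 for Slc30a10, 1.74 for Slc39a8, -0.75 for Mt2, -1.05 for Mt1, -1.12 for Atp7b and -1.21 for Slc39a14. From Liver to Cell Suspension it was 1.48 for Mt2 and 1.87 for Mt1. Slc30a10 and Atp7b had few UMIs in endothelial nuclei, which limits the precision of their values. With RLE scaling fewer of the cases in the comparisons with Cell Suspension passed. The part of free RNA in the endothelial levels was not tested.

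Barcodes outside the table of nuclei held metallothionein RNA in the pools with Primary Hepatocytes far above the pools without them. Mt1 was at 340.3 CPM in the lowest and 1737 in the highest of the 4 pools with cultured cells, against 23.4 and 18.82 in the other two. Mt2 was at 101.6 and 622.9, against 3.91 and 3.552.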

How the results depend on the processing

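Of the counts of members called, 97 values under an alternative stayed within 1.5 times and 6 moved. Of the single values, 733 kept direction and side of the threshold, 27 became significant, 18 ceased to be and 39 turned direction. From Liver to Cell Suspension in hepatocyte nuclei, 4 members instead of 2 passed with edgeR's filterByExpr, with mouse as a replicate block and with samples thinned to the shallowest, and 0 within pools 1 and 6 (at the 2 Cell Suspension samples they hold). With RLE size factors, the hepatocyte minus endothelial change passed for 2 instead of 6 members from Cell Suspension to Primary Hepatocytes and for 1 instead of 2 from Liver to Cell Suspension. With library totals alone 74.1% of called genes were higher from Liver to Primary Hepatocytes and 79.8% from Cell Suspension, against 50.7% and 53.5% with TMM. In Cell Suspension against Liver 35.8% were higher with TMM, 18.5% with library totals, 47.1% with RLE and 49.0% with DESeq2.

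Reversed values (log2) follow. Hepatocytes, Primary Hepatocytes against Liver: pool as covariate put Slc30a1 at -0.11, and Slc39a14 was at 0.41 in spliced counts and 0.34 with library totals. Against Cell Suspension, unspliced counts put Mt2 at -0.26 and Slc30a1 at -0.98, and Slc39a14 was at 0.01 in spliced counts and 0.07 with library totals. Cell Suspension against Liver: Slc30a1 was at -0.19 with pool, -0.23 in spliced counts and -0.44 in pools 1 and 6. Slc30a10 was at -0.15 with pool and with library totals, -0.97 in unspliced counts, -0.01 without replicate 3 and with the unnamed cluster, and -0.18 in pools 1 and 6. Slc39a8 was at 0.00 with RLE and 0.01 with DESeq2 and filterByExpr, and Cp at -0.01 in pools 1 and 6. With RLE, all nuclei had Atp7b at 0.02 in that comparison, endothelial Slc39a8 0.06, Kupffer Slc30a10 0.1, and stellate Slc39a8 0.26 and Atp7b 0.22. With the replicate block, Kupffer Slc30a10 was at 0.11 and stellate Slc39a8 at 0.16. With pool as covariate, endothelial Slc30a1 was at -0.11, Slc30a10 at 0.01 and Slc39a8 at 0.02, and Atp7b at 0.04 in Primary Hepatocytes against Cell Suspension. Within Liver, Kupffer Slc30a1 was at 0.36 with RLE and 0.04 with no replicate block, and stellate Cp at 0.04 with RLE. Under RLE the cell type difference of Cp was 0.09 and the spliced minus unspliced change of Slc39a8 0.08 (both Primary Hepatocytes against Cell Suspension), and the latter was -0.1 for Slc39a14 and -0.02 for Atp7b in Cell Suspension against Liver. With nuclei divided into 4 parts by zone instead of 3, Slc30a1 in Cell Suspension was at -0.15. The cause was not tested.

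With each mouse left out in turn, the calls of Mt1, Mt2, Slc30a10, Slc39a14, Cp and Atp7b in hepatocyte nuclei all held, with Mt1 from 4.84 to 5.69 and Mt2 from 5.71 to 6.47 from Liver to Primary Hepatocytes. Without mouse 3, Slc30a1 passed from Cell Suspension to Primary Hepatocytes (0.53). The replicate block added the calls of Slc39a8, Cp and Slc39a14 given above. Mt1 has no unspliced UMI, so unspliced counts gave no value for it. The low levels of Mt1 and Mt2 in Liver and the few Kupffer and stellate nuclei of Cell Suspension limit the precision of those values.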
